A study of Mus musculus with 20 samples.

Results

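Acetylation of lysine 27 of histone H3 (H3K27ac) was compared between RAW264.7 cells given the osteoclast cytokine RANKL together with the bromodomain inhibitor I-BET and cells given RANKL alone. RAW264.7 is a mouse monocyte-derived cell line that forms osteoclasts, the cells that resorb bone, when it receives RANKL. Of the 20 samples of the series, 6 belong to this comparison: 3 replicates with RANKL at 50 ng/ml and 3 with RANKL at 50 ng/ml and I-BET at 500 nM, all taken after 4 h. All groups are the same line with no genetic change in the labels, and the labels leave unsaid whether replicates were grown separately. The p-values given here therefore reflect no more than the scatter of these samples, which may be technical. Untreated cells (3 replicates) and cells with I-BET alone at 500 nM for 4 h (1 replicate, numbered 3) are given beside the results. Each sample is a list of broad peaks, the stretches where the authors' peak caller found more H3K27ac reads than background, with no read counts. Members were the regions that 2 or more of the 6 lists covered, 19818 consensus regions in all.

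RANKL binds the receptor RANK and, through the adaptor TRAF6, turns on the NF-kB and AP-1 transcription factors and then NFATc1, the master regulator of osteoclast genes. H3K27ac marks active promoters and enhancers and is written by the acetyltransferases p300 and CBP. The BET proteins, Brd2 among them, bind acetylated histones through their bromodomains and recruit the elongation factor P-TEFb, and I-BET compounds occupy those bromodomains. A BET inhibitor acts on readers of acetylation and is not an inhibitor of the enzymes that write or remove it.

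Replicate 2 stands apart in both groups. The RANKL list of replicate 2 held 141905 peaks over 184.6 Mb, against 17794 peaks (23.7 Mb) and 16917 peaks (25.9 Mb) in replicates 1 and 3. The RANKL+I-BET list of replicate 2 held 6041 peaks over 3.44 Mb, against 17643 peaks (23.0 Mb) and 13613 peaks (20.6 Mb). Results below therefore rest on replicates 1 and 3, and replicate 2 is given apart. Over replicates 1 and 3 the RANKL lists covered 24.8 ± 1.57 Mb and the RANKL+I-BET lists 21.8 ± 1.69 Mb (SD, n = 2 each). The difference of -3.03 Mb had a two-sided exact permutation p of 0.333, the smallest that 2 against 2 allows. Peak number differed by -1727.5 (exact permutation p = 0.667, n = 2 each), and without RANKL+I-BET replicate 3 the difference was 287.5. Over all 3 replicates the covered length differed by -62.4 Mb (exact permutation p = 0.1, n = 3 each, the smallest 3 against 3 allows).

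The culture carried macrophage marks and some shared with dendritic cells. Of 29 macrophage identity genes, between 19 and 22 had a gene-end peak (1 kb or less from either end of the gene) in each of the 4 lists of replicates 1 and 3. Their summed acetylated length was 242.9 and 243.4 kb in the RANKL lists and 258.9 and 241.6 kb in the RANKL+I-BET lists. Of 20 dendritic cell genes 8 and 6 had one in the RANKL lists and 8 and 5 in the RANKL+I-BET lists. Of 14 lymphocyte markers 2 had such a peak in each of the 4 lists, and of 14 fibroblast and osteoblast markers and 18 markers of other tissues none had. In the long RANKL list of replicate 2 those 3 marker lists had 14, 8 and 14 members with a gene-end peak. Among defining osteoclast markers Mmp9, Calcr and Itgb3 were listed at 0 kb in the 4 lists, and Acp5, Ctsk, Dcstamp, Ocstamp and Atp6v0d2 were above 0 in each.

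The promoters of 5 genes show the lost and the kept pattern in sequence. Those of Oaz1, Crot, Mrnip and Btbd2 were covered over all 250 bases in both RANKL lists and over 0 bases in both RANKL+I-BET lists of replicates 1 and 3, and that of Rel, the c-Rel subunit of NF-kB, was covered over all 250 bases in all 6 lists. Each line is the 250 bases before a RefSeq transcription start (GRCm38.p6), 5′ to 3′ on the gene's strand, with capitals for matches to any of 9 searched motifs on either strand. The positions are Oaz1 at chr10:80826406-80826655 (plus strand), Crot at chr5:8997147-8997396 (minus), Mrnip at chr11:50174601-50174850 (plus), Btbd2 at chr10:80656495-80656744 (minus) and Rel at chr11:23770970-23771219 (minus). The windows lie outside the gene bodies.
Oaz1: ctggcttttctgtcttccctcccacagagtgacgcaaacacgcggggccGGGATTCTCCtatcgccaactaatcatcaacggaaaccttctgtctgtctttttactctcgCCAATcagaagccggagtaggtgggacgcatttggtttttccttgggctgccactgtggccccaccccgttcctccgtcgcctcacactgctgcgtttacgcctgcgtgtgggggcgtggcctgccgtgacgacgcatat
Crot: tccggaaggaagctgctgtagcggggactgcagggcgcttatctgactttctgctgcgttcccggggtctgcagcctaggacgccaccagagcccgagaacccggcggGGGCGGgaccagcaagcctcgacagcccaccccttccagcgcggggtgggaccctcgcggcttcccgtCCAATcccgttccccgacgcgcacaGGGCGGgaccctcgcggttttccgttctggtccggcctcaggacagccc
Mrnip: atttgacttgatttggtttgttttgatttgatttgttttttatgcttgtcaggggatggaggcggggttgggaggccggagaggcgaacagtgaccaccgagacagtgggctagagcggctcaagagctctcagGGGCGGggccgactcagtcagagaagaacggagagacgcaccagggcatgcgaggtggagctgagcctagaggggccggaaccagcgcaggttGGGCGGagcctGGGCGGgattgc
Btbd2: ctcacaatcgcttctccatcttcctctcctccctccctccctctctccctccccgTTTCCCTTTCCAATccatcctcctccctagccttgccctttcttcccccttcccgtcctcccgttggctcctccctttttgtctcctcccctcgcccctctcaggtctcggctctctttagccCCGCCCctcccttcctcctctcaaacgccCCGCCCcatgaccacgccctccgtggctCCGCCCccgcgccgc
Rel: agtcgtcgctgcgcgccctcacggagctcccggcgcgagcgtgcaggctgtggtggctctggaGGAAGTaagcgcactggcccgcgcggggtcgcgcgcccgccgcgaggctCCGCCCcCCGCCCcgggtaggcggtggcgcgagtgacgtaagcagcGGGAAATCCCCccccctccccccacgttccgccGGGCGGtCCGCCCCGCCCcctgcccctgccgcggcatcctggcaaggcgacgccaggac
Capitals mark an NF-kB motif and a CCAAT box in the Oaz1 window, SP/KLF motifs in those of Crot, Mrnip, Btbd2 and Rel, a CCAAT box in those of Crot and Btbd2, an ISRE core in that of Btbd2, and an ETS core and NF-kB motifs in that of Rel. Oaz1 encodes antizyme, an inhibitor of polyamine synthesis. Crot is a peroxisomal carnitine acyltransferase, and Mrnip takes part in the DNA damage response. The RANKL list of replicate 2 also covered all 5 windows, and the RANKL+I-BET list of replicate 2 covered only that of Rel. I-BET alone covered the windows of Crot, Mrnip, Btbd2 and Rel over all 250 bases and that of Oaz1 over 0. Untreated replicate 3 covered those of Mrnip, Btbd2 and Rel over 250 bases, Oaz1 over 5 and Crot over 0, and untreated replicates 1 and 2 covered only that of Rel. Not all of the mark near Btbd2 was lost. A stretch 1718 bp outside the gene, at chr10:80658212-80659739, showed the reverse pattern. RANKL+I-BET replicates 1 and 3 covered 1430 and 1528 bp of it, and RANKL replicates 1 and 3 covered 0. The RANKL list of replicate 2 covered 850 bp.

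Most acetylated regions stayed. Of the 19818 regions, 12066 (60.9%) were held by both RANKL and both RANKL+I-BET lists of replicates 1 and 3, where holding a region means covering at least 1 bp of it. Another 534 regions (2.69%) were held by both RANKL lists and by neither RANKL+I-BET list, here called lost, and 112 (0.565%) showed the reverse, here called gained. In bulk chromatin fewer cells with the mark and less of the mark per cell cannot be told apart. With 2 lists a group no p per region exists, so these are counts without a test.

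The balance of lost and gained regions turned when the lists were cut to 1 covered length. When each list was cut to its peaks of highest -log10 p until all 4 covered the length of the shortest, RANKL+I-BET replicate 3 at 20.6 Mb, 398 regions were lost, 658 were gained and 7105 were kept. Of the 534 lost regions 251 kept their pattern in the cut lists, and of the 112 gained regions 90 did. Any 1 list left out changed the counts, because fewer lists then had to hold or lack a region. Lost regions numbered 1587 without RANKL replicate 1, 1426 without RANKL replicate 3, 2149 without RANKL+I-BET replicate 1 and 772 without RANKL+I-BET replicate 3. Gained regions numbered 373, 455, 228 and 842 in the same order.

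**Figure D1:**
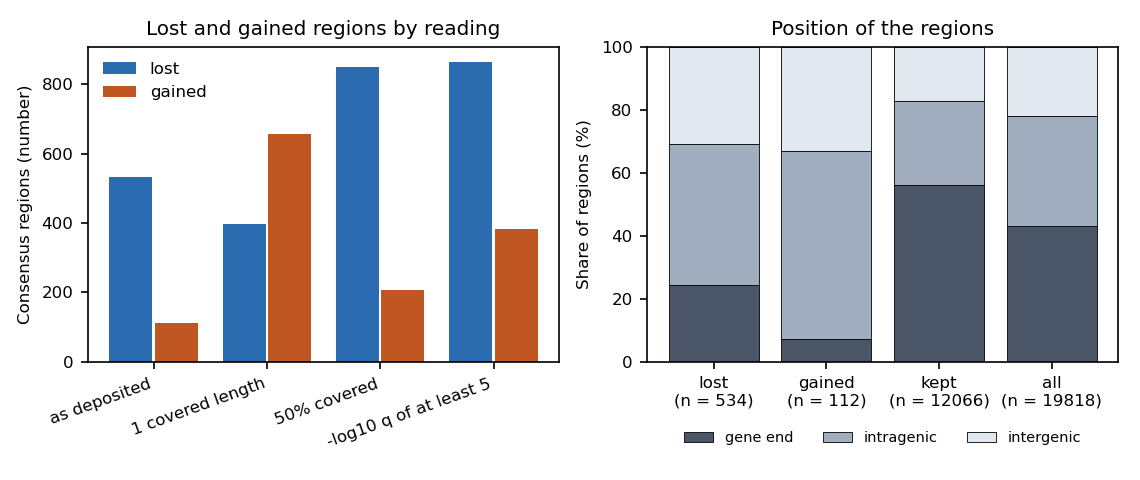
Left, the number of consensus regions lost (RANKL replicates 1 and 3 only) or gained (RANKL+I-BET replicates 1 and 3 only) under 4 readings of the lists. Right, the share of lost, gained, kept and all regions at a gene end (within 1 kb), inside a gene or between genes, in percent. Lost outnumber gained, 534 to 112, in the lists as deposited, and gained outnumber lost, 658 to 398, when all lists have 1 covered length.

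A peak of one RANKL list was missing from the other RANKL list at least as often as from RANKL+I-BET replicate 1. Of the RANKL replicate 1 peaks, 15.6% had no base in RANKL replicate 3, 13.2% had none in RANKL+I-BET replicate 1 and 26.1% had none in RANKL+I-BET replicate 3. Of the RANKL replicate 3 peaks the shares were 14.3% for RANKL replicate 1, 13.8% for RANKL+I-BET replicate 1 and 23.2% for RANKL+I-BET replicate 3. RANKL+I-BET replicate 1, of the same treatment, also lacked 24.2% of its peaks in RANKL+I-BET replicate 3. RANKL+I-BET replicate 3 thus lacked more peaks of each of the other 3 lists of replicates 1 and 3 than they lacked of one another. Of the 14453 regions held by both RANKL lists, 1615 (11.2%) were missing from RANKL+I-BET replicate 3 alone and 238 (1.65%) from RANKL+I-BET replicate 1 alone.

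Width separated what was missing from what was shared. Among RANKL replicate 1 peaks the narrowest of 4 equal width classes (median 337 bp) was missing from RANKL+I-BET replicate 1 in 35.3% and from RANKL+I-BET replicate 3 in 58.5%, and from RANKL replicate 3 in 38.5%. The widest class (median 2372 bp) was missing in 0.247%, 2.23% and 0.922%. Within numbered pairs, replicate 1 had 1747 regions in the RANKL list alone and 1668 in the RANKL+I-BET list alone, and replicate 3 had 3685 and 572. The lists of the first pair covered 23.7 and 23.0 Mb, and those of the third 25.9 and 20.6 Mb, so the pair with the larger gap in covered length had the larger excess of RANKL-only regions. Whether covered length accounts for it was not tested.

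**Figure D2:**
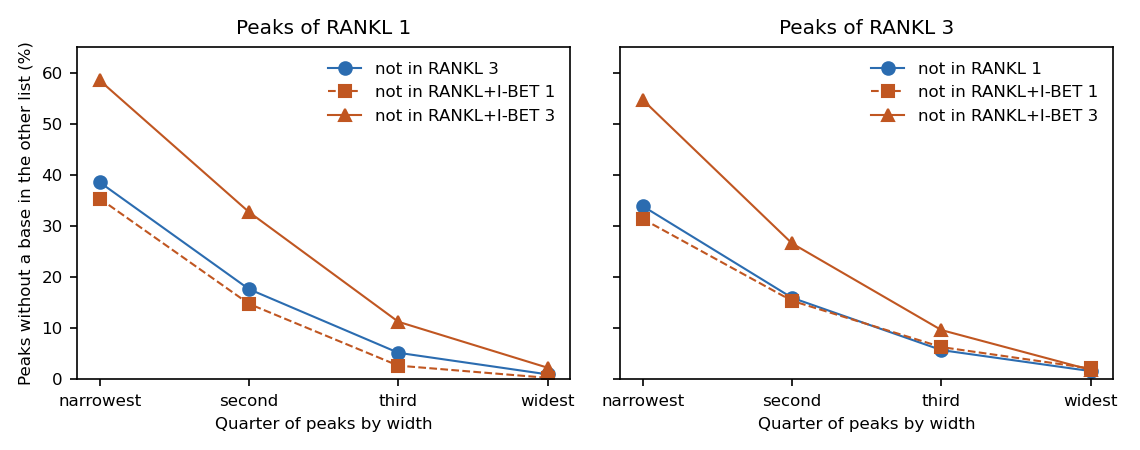
Share of the peaks of RANKL replicate 1 (left) and RANKL replicate 3 (right) that have no base in another list, in percent, by width class (4 equal classes, narrowest to widest). The line for RANKL+I-BET replicate 1 runs close to that for the other RANKL replicate, and the line for RANKL+I-BET replicate 3 lies higher in the narrowest class, at 58.5% and 54.7%.

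Lost regions were narrow and mostly away from gene ends. Their median width was 573 bp, against 1633 bp for kept regions. A region is the stretch that 2 or more lists covered, and more lists hold a kept region than a lost one. The definition therefore favours wider kept regions, and its share in the gap was not tested. Of the 534 lost regions 404 (75.7%) lay more than 1 kb from any end of a protein-coding gene, against 44.0% of kept regions and 56.8% of all regions. Inside genes lay 240 lost regions (44.9%), between genes 164 (30.7%) and at a gene end 130 (24.3%). The median distance to the nearest kept region was 16819.5 bp, and 461 had no RANKL+I-BET peak within 1 kb. The median of the authors' fold enrichment at lost regions was 3.03 in RANKL replicate 1 and 2.39 in RANKL replicate 3, close to 3.16 and 2.57 at kept regions in the same lists. Gained regions were narrower still, at a median of 453 bp, and 104 of 112 (92.9%) lay away from gene ends. This position was not particular to lost regions. Of the regions in only 1 list of the first numbered pair, 80.8% (RANKL) and 79.2% (RANKL+I-BET) lay away from gene ends. Of RANKL replicate 1 peaks, RANKL replicate 3, of the same treatment, lacked 24.8% inside genes, 23.1% between genes and 5.14% at gene ends.

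The lists that did not define the classes held a larger share of the kept regions than of the lost ones. The RANKL list of replicate 2 held 345 lost regions (64.6%) and the RANKL+I-BET list of replicate 2 held 3 (0.562%), so that 342 (64.0%) were lost in all 3 replicates. Those 2 lists held 94.9% and 41.1% of the kept regions, and the RANKL list alone of the 2 held 6569 (54.4%) of them. Over all consensus regions they held 90.3% and 26.9%. No region was gained in all 3 replicates. With lists so unequal in length, replicate 2 cannot decide whether a region was lost or gained. Untreated replicates 1 and 3 held 159 (29.8%) and 152 (28.5%) of the lost regions, and 10059 (83.4%) and 11257 (93.3%) of the kept ones. The list of I-BET alone held 123 lost regions (23.0%) and 10847 kept ones (89.9%). Because any comparison of untreated with RANKL cells uses the same RANKL lists that defined the lost regions, these shares are given side by side and not as a test.

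The strongest lost regions were ranked by the lower of their -log10 p values in RANKL replicates 1 and 3, which are the authors' values for each peak. The first lay inside Nr1d1, the heme-binding repressor REV-ERBα of the clock, at chr11:98773229-98773266 (fold 8.36 and 4.95), and its 38 bp had a RANKL+I-BET peak within 1 kb. Next came a 739 bp region inside the helicase gene Dhx57 at chr17:80252549-80253287 (fold 7.44 and 5.62), which untreated replicate 1 also held at 4.76. Another lay 715 bp outside Rgs1, a regulator of G-protein signalling in leukocytes, at chr1:144243604-144243954 (fold 9.16 and 5.52), and no untreated list held it. Between genes, 17427 bp from Nelfa, a subunit of the pausing factor NELF, a region at chr5:33953728-33954095 had fold 8.53 and 4.98. These 4 regions were held by neither RANKL+I-BET list of replicates 1 and 3 nor by that of replicate 2.

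Gene-end regions came next in the ranking. At Pgm2, a phosphoglucomutase family enzyme, 978 bp at chr5:64092792-64093769 had fold 6.21 and 5.15 and no untreated or I-BET list held it. At Ormdl3, a regulator of sphingolipid synthesis, 1455 bp at chr11:98586712-98588166 had fold 5.93 and 4.69.

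Another 8 of the 15 leading lost regions had a fold of 4.51 to 6.03 in RANKL replicate 1 and of 3.12 to 7.12 in RANKL replicate 3. Those at Scamp5 (a secretory carrier membrane protein) and Tnfrsf23 (a decoy receptor of the TNF receptor family) were gene-end regions. Those inside Tor1aip2, Cdc42se2 (an effector of the GTPase CDC42), Fat3 (a large cadherin) and Kdm4a (a histone lysine demethylase) were 65 to 352 bp wide. Others lay between genes, 8121 bp from the phosphatase gene Cdc14a and 4819 bp from Itpr3, an inositol trisphosphate receptor of calcium release. The Itpr3 region at chr17:27051114-27052183 had fold 4.51 and 7.12, and 8.67 in the RANKL list of replicate 2, the highest replicate 2 value of the 15. The 10th region away from gene ends, at chr8:34275978-34277074, had no protein-coding gene within 100 kb and fold 4.53 and 2.27. Of the 16 leading lost regions, 10 kept their pattern under 1 covered length, a -log10 q of at least 5, a 50% coverage rule and joined peaks, and the other 6 (among them Nelfa, Pgm2, Ormdl3, Scamp5 and Tnfrsf23) changed under the 50% rule alone.

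Gained regions led with a 450 bp stretch 4633 bp from Wdr59, a component of the GATOR complex upstream of mTORC1, at chr8:111526761-111527210. Its fold was 8.85 and 4.51 in RANKL+I-BET replicates 1 and 3 and 4.08 in replicate 2, and it was also held by the RANKL list of replicate 2 at 2.12. A region 6778 bp from Ubash3b, a negative regulator of tyrosine kinase signalling, had fold 4.86 and 3.05, and one inside Ptprc, which encodes the leukocyte phosphatase CD45, had 4.59 and 2.69. One inside Aff1, a scaffold of the super elongation complex, had 4.23 and 2.88. The other 6 of the 10 lay at or near Traf5, Ybx2, Sumo3, Bcl9, Cnih4 and Sgsm3, with a fold of 4.13 to 6.86 in replicate 1 and of 2.98 to 3.79 in replicate 3. Of the 10 regions, 8 were also held by the RANKL list of replicate 2, all but those at Ptprc and Sgsm3. The pattern held under the same 4 readings at 5 of the 10, changed at Aff1 under the 50% rule, and changed at Sumo3, Bcl9, Cnih4 and Sgsm3 with a -log10 q of at least 5.

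The strongest kept regions, ranked by the lowest -log10 p of the 4 lists, are given with their fold in each list. At the end of Chchd7, a mitochondrial protein gene, fold was 6.32 and 5.12 with RANKL and 6.24 and 4.47 with RANKL+I-BET. At Epsti1, an interferon-inducible gene, it was 6.52 and 3.47 against 6.90 and 4.21, and both lists of replicate 2 held it. Inside Pxn, which encodes the adhesion adaptor paxillin, 2896 bp had 4.50 and 4.25 against 7.22 and 3.67. The others of the first 10 were at or inside Gm9949, Vps45 (a vesicle trafficking protein), Shc2 (a signalling adaptor), Endod1, Fbxo38 (a ubiquitin ligase subunit), Tceanc2 and C330018D20Rik. The 5 leading kept regions away from gene ends were those at Gm9949, Vps45, Shc2 and Pxn and one 9153 bp from Arhgef37, with fold 4.94 and 5.49 against 7.37 and 3.54. Fold is scaled within each list, so a higher value in one list is no measure of more acetylation than in another.

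A few genes had several lost regions. Lost regions were nearest to 466 genes, 4.57% of the 10196 genes nearest to any consensus region, and 441 of these had 1, 23 had 2 and 2 had 3. The 2 genes with 3 were Cdk6, a kinase that drives entry into the cell cycle, and Grb2, an adaptor that couples receptors to RAS. The Cdk6 regions at chr5:3355551-3356343, chr5:3429941-3430381 and chr5:3432330-3433743 had fold 3.42 and 2.61, 3.34 and 3.14, and 2.48 and 2.43, and kept their pattern with 1 covered length, although the last had a RANKL+I-BET peak within 1 kb. The RANKL list of replicate 2 held the middle and the last at 5.71 and 10.3, and 7 kept regions were also nearest to Cdk6. The Grb2 regions had fold 3.69 and 2.04, 4.34 and 2.07, and 6.55 and 2.995, and the RANKL list of replicate 2 held all 3 at 1.18 to 1.95. Of the 23 genes with 2, the first 8 in the alphabet were Apbb1ip, Arsb, Baiap2, Cab39, Cd47, Cep43, Creb5 and Dnttip1. Creb5, a bZIP factor of the CREB family, had its regions 3935 and 13099 bp outside the gene, with fold 3.51 and 2.20, and 4.02 and 2.94, and no untreated or I-BET list held either. The nearer Creb5 region did not keep its pattern with 1 covered length and the farther did, and 2 kept regions were also nearest to Creb5. Cd47, the signal that restrains phagocytosis, had fold 3.50 and 2.10, and 3.98 and 2.93, at 25923 and 53469 bp from the gene.

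At gene ends the mark was lost at 124 genes and gained at 6. These are 1.28% and 0.0621% of the 9668 genes with a gene-end peak in any of the 4 lists, and 7761 genes had one in all 4. Cutting the lists to 1 covered length gave 134 and 271. Gene-end losses numbered 295 without RANKL replicate 1, 271 without RANKL replicate 3, 872 without RANKL+I-BET replicate 1 and 176 without RANKL+I-BET replicate 3, and gains numbered 62, 107, 19 and 115. Of the 124, the RANKL list of replicate 2 held 122 and the RANKL+I-BET list of replicate 2 held 1. Over all 21887 protein-coding genes those 2 lists had a gene-end peak at 16186 and 3788, and the second held 3637 of the 7761 kept. Both untreated replicates 1 and 3 held 9, neither held 65, and I-BET alone held 31. The 6 gained were Ptgs2 (cyclooxygenase-2, the prostaglandin-forming enzyme), Dok3 (an inhibitory adaptor of immune receptors), Cysltr1 (a leukotriene receptor), Tnks1bp1, Rasip1 and Gm51425, and the RANKL list of replicate 2 held a gene-end peak at all 6. At Ptgs2 the gained region, chr1:150099488-150100408, had fold 3.68 and 1.88 in RANKL+I-BET replicates 1 and 3.

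Of all genes in the lists described further on, Cmpk2 and Irf7 lost their gene-end peak, and both are in the interferon list. At Cmpk2, an interferon-induced mitochondrial nucleotide kinase, the region at chr12:26469011-26470081 had fold 7.13 and 3.09 with RANKL and 2.06 in the RANKL list of replicate 2. No untreated list, RANKL+I-BET list or I-BET list held it. At Irf7, the factor that amplifies type I interferon, the region at chr7:141265399-141266568 had fold 4.04 and 2.14. Untreated replicate 3 also held it at 1.69 and I-BET alone at 5.49. Both regions kept their pattern with 1 covered length.

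Promoter windows that lost the mark were about as rich in G and C as those that kept it. RefSeq starts were listed for 17492 of 21887 protein-coding genes, giving 21263 windows of 250 bases before a start. In 32 windows, of 29 genes, both RANKL lists covered the window and no peak of RANKL+I-BET replicates 1 and 3 lay within 1 kb, a pattern that the Crot, Mrnip and Btbd2 windows above share. The Oaz1 window is not among them, because RANKL+I-BET peaks lie within 1 kb of it. Lost windows had a median G+C content of 63.0% and a median ratio of observed to expected CpG of 0.776. The 5309 windows held by all 4 lists had 62.4% and 0.829, and the 12817 held by none had 51.2% and 0.292. Mprip, Sp100 and Lmo4 each count with 2 overlapping lost windows, so the 32 are not independent. The SP/KLF motif (GGGCGG, either strand) was found in 25 of the 32 lost windows (78.1%), 61.6% of kept windows and 42.6% of all windows. The overlapping windows of these 3 genes all carried it. The CCAAT motif, on either strand, was in 12 of 32 (37.5%), 32.8% of kept and 35.4% of all windows. The AP-1 motif (TGANTCA) was in 1 (3.12%), 3.64% of kept and 6.13% of all windows, and the ISRE core (GAAANNGAAA) in 2 (6.25%), 2.67% and 2.96%. The ETS core (GGAAGT) was in 6 (18.8%), 28.3% and 20.4%, the E-box (CACGTG) in 2 (6.25%), 9.51% and 6.63%, the NF-kB motif in 2 (6.25%), 9.34% and 7.91%, and the TATA motif (TATAAA) and the CRE (TGACGTCA) in 0, against 11.6% and 1.92% of all windows. All motifs were searched on both strands, and matches to different motifs can overlap, as the ISRE core and the CCAAT box do in the Btbd2 window. A match is a string of letters in these windows and shows no binding.

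The length under peaks around each gene was then tested. For each gene, peak length was summed over windows of 25 kb on each side of both gene ends and fitted as log2(bp + 500) with limma in the untreated, RANKL and RANKL+I-BET lists of replicates 1 and 3, with Benjamini-Hochberg adjustment over 12014 genes. No gene was called at an adjusted p under 0.05 (0% of genes), and the smallest adjusted p was 1. At an unadjusted p under 0.05 stood 268 genes, 255 lower and 13 higher with RANKL+I-BET. The median log2 difference was -0.13. Both RANKL+I-BET lists lay below both RANKL lists at 3526 genes (29.3%) and above them at 775 (6.45%). For gene lengths, 1 covered length means that all 6 fitted lists were cut to the shortest, untreated replicate 1 at 16.1 Mb. This cut is harsher than the 20.6 Mb used for regions and gene ends, and it also shortens RANKL+I-BET replicate 3. The 2 counts then became 1795 of 10749 genes (16.7%) and 1632 (15.2%). The share of lower among such genes went from 82.0% to 52.4%, and the smallest adjusted p was 0.252. Centring each list on its median gave 1547 lower and 2562 higher, moving the median log2 difference from -0.13 to 0.03. The genes below are therefore described by their values in each list and not as changed. Values are kb of acetylated length in these windows, given for replicate 1 and then 3, with the RANKL lists first and the RANKL+I-BET lists after "against".

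Among genes whose groups did not overlap, the largest negative differences were small acetylated stretches that were mostly near 0 with the inhibitor. Around Oaz1, 3.81 and 3.15 kb were acetylated in the RANKL lists against 0.228 and 0.437 kb, a log2 difference of -2.26 (SE 0.30; limma adjusted p = 1). Untreated replicates 1 and 3 had 1.86 and 1.56 kb and I-BET alone 0.402 kb, so RANKL lists were the highest and the 2 lists with inhibitor and RANKL lay below untreated ones. Cut to 1 covered length, Oaz1 had 3.81 and 3.15 kb against 0 kb in both RANKL+I-BET lists. At Nrp1, the neuropilin co-receptor of semaphorins and VEGF, 1.87 and 2.76 kb stood with RANKL, 0.443 and 0 kb untreated, and both RANKL+I-BET lists and I-BET alone were listed at 0. At Creb5, 1.53 and 2.35 kb stood against 0.274 and 0 kb (log2 difference -1.95, SE 0.47, limma adjusted p = 1), and untreated lists had 0.159 and 0 kb. Beside its 2 lost regions, 2 kept regions were nearest to Creb5.

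In the other 7 both RANKL lists also lay above both RANKL+I-BET lists, and untreated lists reached or passed a RANKL list in some. Sirpb1b, a receptor of the signal-regulatory protein family, had 1.62 and 1.505 kb in the RANKL lists and was listed at 0 in both RANKL+I-BET lists, but untreated replicate 3 had 1.59 kb. C330007P06Rik had 3.37 and 2.02 kb against 0.705 and 0 kb. Smurf1, a ubiquitin ligase that limits BMP signalling in bone, had 0.813 and 3.36 kb against 0.192 and 0 kb, with 0 and 1.72 kb untreated. Zfpm1, the GATA cofactor FOG1, had 3.51 and 4.45 kb against 2.30 and 0 kb, with 3.91 and 1.22 kb untreated. Ido2, of tryptophan breakdown, had 1.40 and 2.79 kb against 0 and 0.403 kb. Tmem26 had 0.752 and 3.60 kb against 0.145 and 0 kb, and Tmem182 had 0.887 and 2.73 kb against 0.163 and 0 kb. In lists of 1 covered length, Oaz1, Tmem26, Ido2 and Tmem182 kept both RANKL+I-BET lists below both RANKL lists, Sirpb1b and Zfpm1 overlapped, and Nrp1, C330007P06Rik, Creb5 and Smurf1 no longer passed the filter of a mean of 500 bp.

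The 5 largest positive differences were as small in length. Around Ccr1, a chemokine receptor of monocytes and osteoclast precursors, 0.485 and 0 kb stood against 1.81 and 1.61 kb (log2 difference 1.65, SE 0.49; limma adjusted p = 1), and within 100 kb of the gene ends the difference was -0.12. Untreated lists had 0.141 and 0 kb around Ccr1 and I-BET alone was listed at 0, so the RANKL+I-BET lists were the highest of all but the long RANKL list of replicate 2, at 2.55 kb. Klhl6, a B-cell ubiquitin ligase adaptor, had 1.32 and 2.05 kb against 3.26 and 4.97 kb, and with I-BET alone 3.40 kb. Ripor3 had 0.508 and 0 kb against 2.59 and 0.554 kb, Casp6, an executioner caspase, 1.11 and 0 kb against 1.51 and 1.14 kb, and Samsn1, an adaptor of B cells, 0.270 and 0 kb against 1.43 and 0.319 kb. With all 3 replicates fitted, Ripor3, Klhl6 and Casp6 had log2 differences of -1.39, -0.34 and -0.94.

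**Figure D3:**
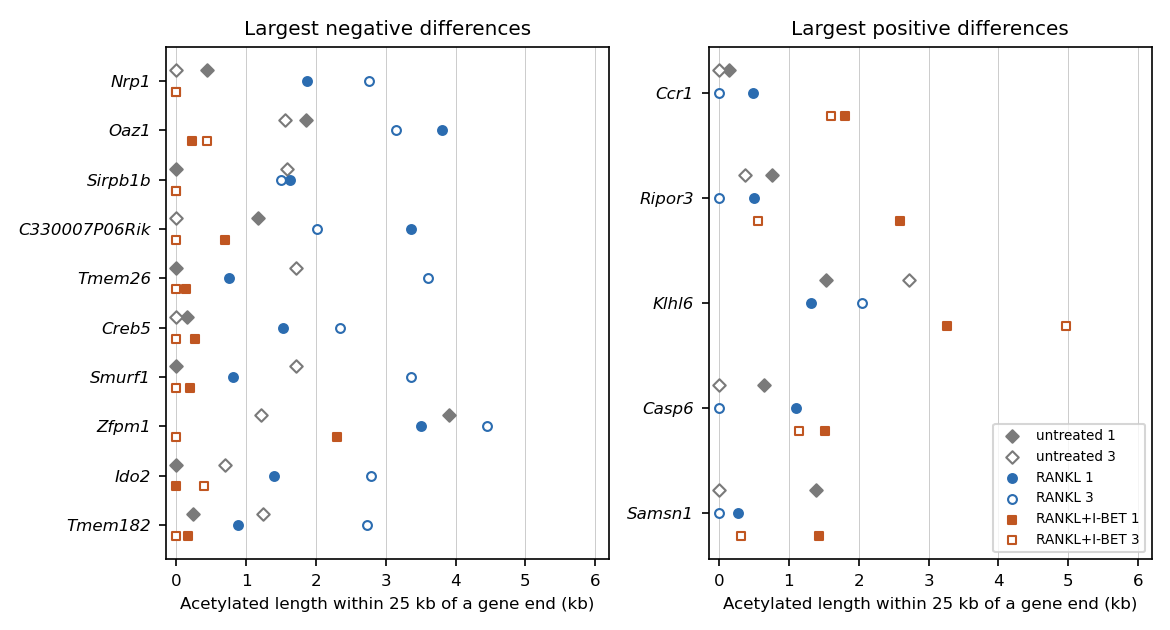
Acetylated length in kb within 25 kb of either gene end, for the 10 genes with the largest negative (left) and the 5 with the largest positive (right) log2 difference among genes whose groups do not overlap. Diamonds are untreated, circles RANKL and squares RANKL+I-BET lists of replicate 1 (filled) or 3 (open), and the RANKL circles of Oaz1 sit at 3.81 and 3.15 kb, its RANKL+I-BET squares at 0.228 and 0.437 kb.

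Members of the NF-kB pathway, the first branch below RANK, were mixed, with the p100 and p105 genes lower and Rel higher in both RANKL+I-BET lists. Of 25 tested members 11 (44.0%) lay below and 3 above, against 29.3% and 6.45% of all genes tested, with a median log2 difference of -0.16. With 1 covered length 5 of 24 lay below and 2 above, against 16.7% and 15.2%. The precursor genes Nfkb1 and Nfkb2, which encode p105 and p100, had 3.73 and 3.92 kb against 2.70 and 2.78 kb, and 3.04 and 3.38 kb against 2.79 and 1.53 kb. Relb, the partner of the p100 product, had 2.21 and 1.62 kb against 1.43 and 1.37 kb, and Rela had 4.36 and 5.92 kb against 3.95 and 4.03 kb. Traf1, a signalling adaptor and NF-kB target, had 6.07 and 6.05 kb against 4.70 and 4.38 kb, and Traf2 had 4.15 and 4.49 kb against 2.98 and 2.12 kb. Nfkbia, the inhibitor IkBα, had 8.03 and 8.44 kb against 7.84 and 6.83 kb. Tnfaip3, which encodes the deubiquitinase A20, overlapped at 2.36 and 1.54 kb against 1.67 and 1.71 kb. Rel, Ikbkb and Bcl2a1b were higher in both RANKL+I-BET lists, with Rel at 2.49 and 2.89 kb against 3.08 and 3.49 kb. Nfkb1, Nfkb2, Ikbkg, Traf2 and Commd1 were the 5 below with 1 covered length, and Rel was above there too.

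Most genes of the NFATc1 axis kept a gene-end peak, as did most genes that had one. Of 23 tested members of the NFATc1 and AP-1 list 4 lay below (Creb5, Jund, Mycl and Esrra; 17.4%) and 0 above, against 29.3% and 6.45% of all genes. Of the 25 genes in the list 18 had a gene-end peak in all 4 lists, and 0 lost one. Over all genes, 7761 of the 8685 with such a peak in both RANKL lists had one in all 4. The mark was lost at 1.28% of genes with a gene-end peak in any of the 4 lists. At 1 covered length 4 of 22 lay below (Jund, Max, Creb1 and Esrra) and 3 above (Fosl1, Junb and Atf3), against 16.7% and 15.2%. Without RANKL replicate 1, 15 of 23 lay below and 0 above, against 54.8% and 14.8% of all genes. Without RANKL replicate 3 these were 3 of 21 and 4, against 43.1% and 22.5%. Nfatc1 had 11.4 and 15.7 kb against 10.5 and 12.5 kb, and 6.69 and 11.9 kb untreated, with 6 kept regions and 0 lost. Fos had 15.2 and 13.03 kb against 15.4 and 11.6 kb, Junb 15.1 and 16.2 kb against 15.6 and 14.8 kb, Jun 3.64 and 5.02 kb against 4.21 and 4.76 kb and Fosl2 5.18 and 6.33 kb against 4.15 and 5.43 kb. These 4 AP-1 genes overlapped between groups as deposited, and Junb lay above with 1 covered length, at 12.1 and 2.37 kb against 15.2 and 14.8 kb. Jund, another AP-1 subunit, did not, at 8.53 and 8.45 kb against 6.04 and 5.38 kb. Ppargc1b, a coactivator of osteoclast mitochondria, had 1.62 and 2.17 kb against 1.87 and 2.03 kb, and Prdm1, the repressor BLIMP1, was listed at 0 in all but the RANKL list of replicate 2. A gained region lay inside Tnfrsf11a, which encodes the receptor RANK, at fold 3.86 and 1.99, and kept its pattern with 1 covered length. One inside Mitf, a factor of osteoclasts and macrophages, at 1.13 and 2.45, did not, and untreated replicates 1 and 3 (3.01 and 2.08) and I-BET alone (2.03) held it.

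Osteoclast function genes were near the background. Of 24 tested members 7 (29.2%) lay below and none above, against 29.3% and 6.45% of all genes. With 1 covered length 5 lay below and 4 above, against 16.7% and 15.2%. Acp5, the tartrate-resistant phosphatase, had 3.41 and 2.87 kb against 2.66 and 0.940 kb, and at 1 covered length 3.41 and 2.87 kb against 2.66 and 0 kb. The gene of cathepsin K, Ctsk, which breaks down collagen, had 17.1 and 16.3 kb against 15.2 and 12.9 kb, and 2 kept regions. Atp6v1c1, a subunit of the proton pump, had 8.48 and 9.03 kb against 6.95 and 6.34 kb, and a lost region of 162 bp at its gene end that did not keep its pattern with 1 covered length. The fusion genes Dcstamp and Ocstamp overlapped, at 2.54 and 6.63 kb against 1.32 and 5.89 kb and at 1.78 and 4.73 kb against 1.48 and 2.67 kb. Replicate 3 was higher than replicate 1 in either group. Within each numbered pair both genes, like Nfatc1 and Fosl2, were lower in the RANKL+I-BET list. Fos, Junb and Jun were higher in that list in pair 1 and lower in pair 3. Of all genes tested, 72.7% had a negative log2 difference, and the share lower in both pairs was not counted. Limma with the replicate as a block gave an adjusted p of 1 for all genes. With 1 covered length Dcstamp had 1.78 kb in RANKL replicate 3 and 3.48 kb in RANKL+I-BET replicate 3, so its order in that pair turned.

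The counts of macrophage identity genes below and above changed with the reading, as did the shares of all genes. Of 27 tested members 2 (7.41%) lay below and 6 above, against 29.3% and 6.45% of all genes, and the median log2 difference was 0.03. With 1 covered length 0 of 27 lay below and 7 above, against 16.7% and 15.2%. With a -log10 q of at least 5, 5 of 19 lay below and 2 above, against 23.9% and 8.11% of all genes. Over all 3 replicates these were 2 of 28 and 0, against 23.8% and 0%. With the 100 kb window they were 6 of 27 and 6, against 34.2% and 4.14%. Without RANKL+I-BET replicate 1 they were 10 of 27 and 8, against 57.5% and 13.4%. Csf1r, the receptor for M-CSF, had 14.2 and 16.8 kb against 17.4 and 17.6 kb, Cebpa, a myeloid master factor, 3.14 and 3.80 kb against 3.97 and 4.45 kb, and Cd68, a lysosomal glycoprotein, 12.2 and 11.6 kb against 14.5 and 13.4 kb. Cd14, the lipopolysaccharide co-receptor, had 34.5 and 32.2 kb against 35.3 and 39.2 kb. These 4 were above in both readings. Tlr4 and Msr1 were above only in the lists as deposited. Cebpb was below as deposited, at 4.72 and 5.05 kb against 3.80 and 4.08 kb, and above with 1 covered length, and Itgam was below as deposited. Spi1, the PU.1 gene, overlapped at 18.5 and 20.2 kb against 18.1 and 20.7 kb, and Bcl6 and Irf8 overlapped too.

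Inflammatory genes differed by reading. Of 19 tested cytokine and chemokine genes 2 lay below (Hmox1 and Cxcl16) and 3 above (Ccl3, Ccl4 and Il23a) as deposited, against 29.3% and 6.45% of all genes. With 1 covered length 8 of 18 lay below, Il23a among them, and 4 above, against 16.7% and 15.2%. Ccl3 and Ccl4 are neighbours with the same acetylated length in their windows, 6.97 and 7.56 kb against 10.5 and 8.24 kb, and were above in both readings. Around Tnf, the tumour necrosis factor gene, stood 21.6 and 24.8 kb against 19.6 and 24.1 kb, and with 1 covered length 18.3 and 24.1 kb against 12.5 and 14.4 kb. Il1b had 3.36 and 1.67 kb against 3.44 and 1.41 kb, and with 1 covered length 3.36 and 1.67 kb against 0 kb in both. Il1rn, the interleukin-1 receptor antagonist, had 2.73 and 1.94 kb against 3.23 and 2.34 kb, where untreated lists had 0.391 and 0 kb.

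In the interferon list 6 of 21 tested members (28.6%) lay below, near the 29.3% of all genes, and 0 above, and with 1 covered length 1 of 17 lay below (Stat2) and 2 above (Irf3 and Oas2), Irf3 having been below as deposited. Isg15, an interferon-induced ubiquitin-like modifier, had 0.862 and 1.84 kb against 0.424 and 0.345 kb, Irf7 1.03 and 1.87 kb against 0.885 and 0.635 kb, and Irf9, of the ISGF3 complex, 4.11 and 5.79 kb against 2.98 and 3.77 kb. Cmpk2 had 0.602 and 0.861 kb in the RANKL lists and was listed at 0 in both RANKL+I-BET lists, all untreated lists and the I-BET list. It did not pass the filter of a mean of 500 bp and has no test.

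**Figure D4:**
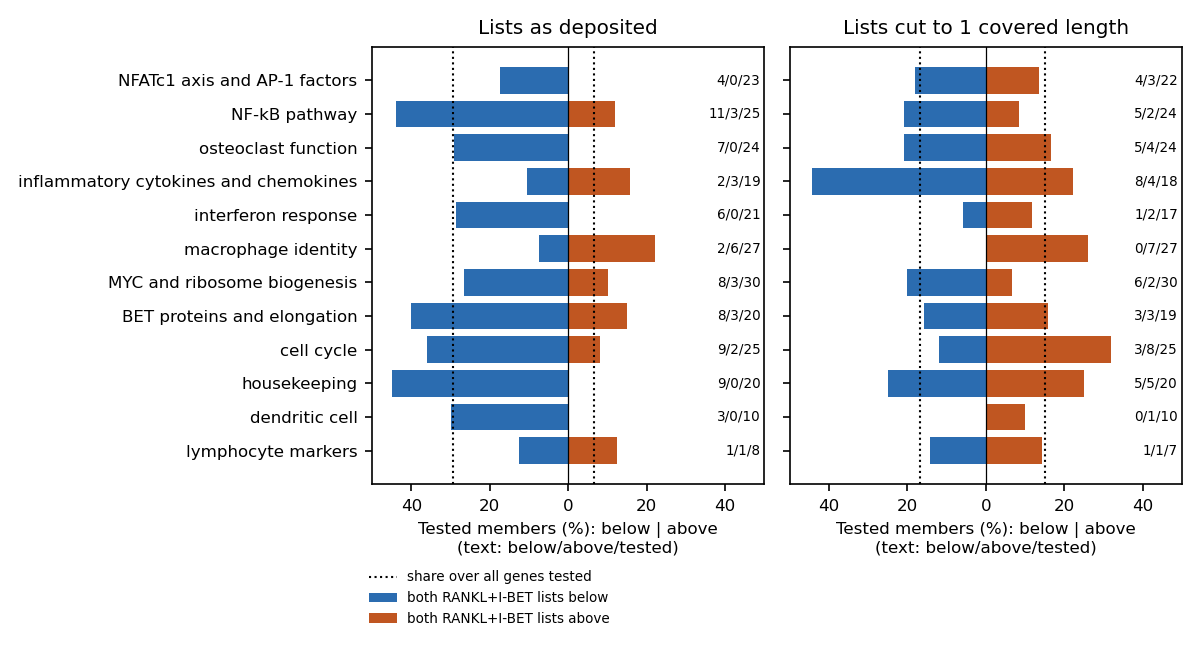
Share of tested list members, in percent, with both RANKL+I-BET lists of replicates 1 and 3 below (bars to the left) or above (bars to the right) both RANKL lists, as deposited (left) and cut to 1 covered length (right). Dotted lines mark the shares over all genes tested, 29.3% and 6.45% as deposited and 16.7% and 15.2% with 1 covered length. The covered length here is 16.1 Mb, that of untreated replicate 1.

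The list of BET and other bromodomain proteins, elongation factors, Mediator subunits and acetyltransferases gave no single direction. Of its 20 genes 8 lay below and 3 above, against 29.3% and 6.45% of all genes, and with 1 covered length 3 of 19 on each side, against 16.7% and 15.2%. Brd2 had 6.503 and 7.68 kb against 7.84 and 8.36 kb, and overlapped with 1 covered length, at 6.503 and 7.05 kb against 7.51 and 0 kb. Hexim1, the P-TEFb inhibitor, had 7.22 and 9.10 kb against 7.13 and 6.46 kb. Ep300, which encodes p300, had 4.96 and 4.66 kb against 3.57 and 3.56 kb. Of 30 MYC and ribosome biogenesis genes 8 (26.7%) lay below and 3 above, and with 1 covered length 6 and 2, so the share below was near that of all genes in both readings. Of the lists of replicates 1 and 3, Myc was covered in RANKL replicate 3 at 3.06 kb and RANKL+I-BET replicate 1 at 1.39 kb, and the lists of RANKL replicate 1, RANKL+I-BET replicate 3 and both untreated replicates held none of it. The RANKL list of replicate 2 covered 6.47 kb around Myc. Rrp9, a ribosomal RNA processing factor, had 1.30 and 1.47 kb against 0.650 and 0 kb, and Rpl3 had 16.1 and 16.6 kb against 12.3 and 12.5 kb.

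Of 25 cell cycle genes 9 (36.0%) lay below and 2 above, against 29.3% and 6.45% of all genes, but with 1 covered length 3 lay below and 8 above, against 16.7% and 15.2%. Cdk6 had 9.36 and 12.1 kb against 7.91 and 8.46 kb, and overlapped with 1 covered length, at 7.19 and 12.1 kb against 7.45 and 8.46 kb. Cdkn1a, the inhibitor p21, had 10.9 and 10.8 kb against 7.59 and 10.5 kb. Housekeeping genes, a comparison list, had 9 of 20 (45.0%) below and 0 above, against 29.3% and 6.45% of all genes. With 1 covered length 5 lay on each side, against 16.7% and 15.2%. Whether the treatment leaves these genes unchanged was not tested. Actb had 13.9 and 14.4 kb against 10.1 and 9.52 kb, and 13.9 and 9.54 kb against 8.26 and 8.81 kb with 1 covered length. Gapdh overlapped at 5.77 and 5.58 kb against 5.68 and 4.62 kb, and lay below with 1 covered length. Eef1a1 and Tubb5 were below as deposited and above with 1 covered length. Of 10 tested dendritic cell genes 3 lay below, Id2, Xcr1 and Relb, and with 1 covered length 0 lay below and Id2 above. Of 8 lymphocyte genes 1 lay on each side, and of 3 fibroblast and osteoblast and 4 other tissue genes 0 and 1 lay below and none above. The shares of all genes in that reading, as deposited, were 29.3% and 6.45%.

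**Figure D5:**
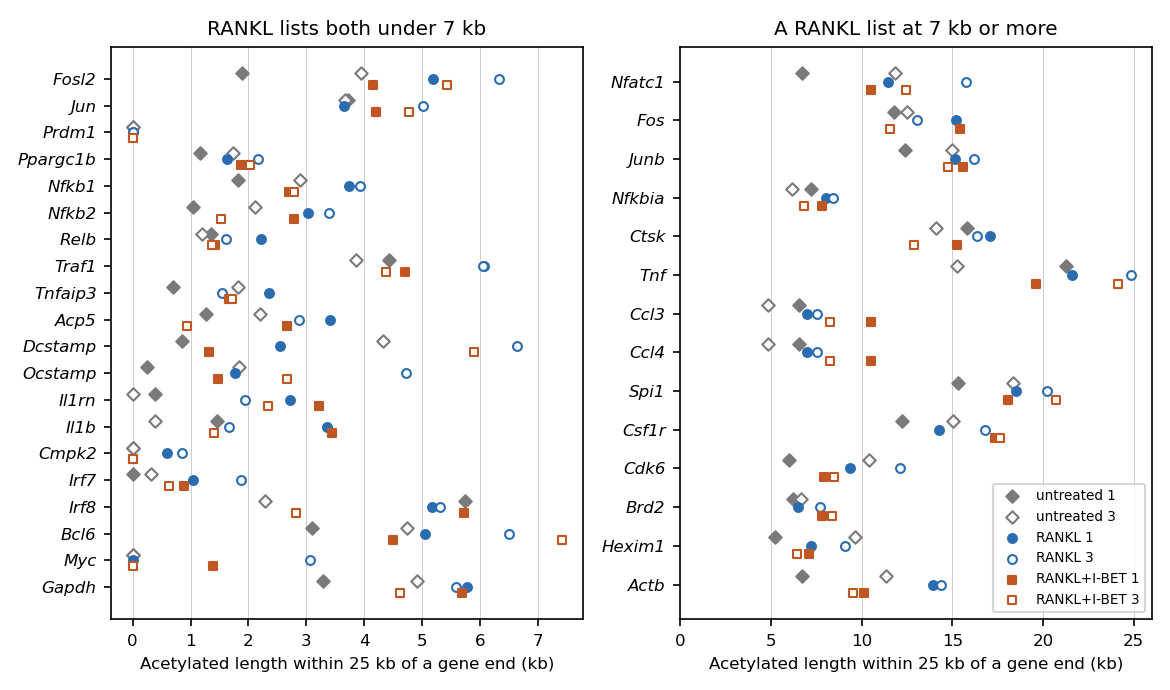
Acetylated length in kb within 25 kb of either gene end for genes described from the lists, in untreated (diamonds), RANKL (circles) and RANKL+I-BET (squares) lists of replicates 1 (filled) and 3 (open), split by length over 2 panels. Nfkb1, Traf1 and Actb show both RANKL+I-BET lists below both RANKL lists, and Fos, Junb and Spi1 overlap.

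Within stretches that all 4 lists held, the acetylated length could still differ. Of 11986 such stretches, both RANKL+I-BET lists were shorter than both RANKL lists at 2767 (23.1%) and longer at 1162 (9.69%), and the shares were alike at gene ends (22.5% and 9.98%), inside genes (22.9% and 9.34%) and between genes (25.2% and 9.30%). The stretches named here were chosen after their values were seen. At Oaz1 3.81 and 3.15 kb stood against 0.228 and 0.437 kb. Inside Npc2, which exports cholesterol from lysosomes, 5.84 and 6.86 kb stood against 3.66 and 1.24 kb, and 29003 bp from Cd69, a leukocyte activation receptor, 6.14 and 4.76 kb against 2.48 and 0.965 kb. The longer stretches included Laptm5, a lysosomal membrane protein of blood cells, at 5.92 and 6.30 kb against 9.28 and 9.26 kb, and Sirpa, the receptor for CD47, at 0.491 and 0.969 kb against 3.34 and 3.54 kb. I-BET alone had 9.16 kb at Laptm5 and 3.84 kb at Sirpa, and untreated replicates 1 and 3 had 5.56 and 5.64 kb, and 1.54 and 1.92 kb. At both genes the 1 list of I-BET alone was longer than these 2 untreated lists. The order of the RANKL+I-BET and RANKL lists of replicates 1 and 3 is how the 2 genes were chosen, so it is no support. In replicate 2 the RANKL list was the longer, at 9.31 against 1.72 kb at Laptm5 and 4.21 against 0.626 kb at Sirpa.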

How the data were processed

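Chromatin of fixed cells was immunoprecipitated for H3K27ac and sequenced, per the labels' protocols. FastQC, Bowtie2, MACS2 and the builds mm10 and GRCm38 are named per the submitters' processing notes, and their versions and settings are not given in the sources used here. The authors deposited 10 lists of broad peaks, 1 per library, each peak with its fold enrichment (a ratio over the peak caller's background) and its -log10 p and -log10 q. The columns carry no header and were read in the usual broadPeak order. Depth is unknown, since a list carries no counts of reads, and no interval from depth is given. The 10 input samples were not used here.

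Stretches covered by at least 2 of the 6 lists were the consensus regions, and gene positions came from RefSeq (GRCm38.p6), without strand. Acetylated length near genes was fitted as log2(bp + 500) with limma 3.58.1 (R 4.3.3; other steps in Python 3.11.15) on genes with a mean of at least 500 bp, with Benjamini-Hochberg adjustment and a threshold of 0.05. Named regions rank by the lower -log10 p of their group's 2 lists (15 lost, 10 gained, 10 kept, and the leading ones over 1 kb from gene ends). Named genes are the 10 with most lost regions, the 10 largest negative and 5 largest positive log2 differences without overlap, list members whose gene-end peak was lost or gained, and a set list of pathway genes. The members and lists were chosen with earlier results of these data known. Same-numbered lists deviated together over genes (r = 0.455, 0.534 and 0.449, against 0.294 and 0.380 between replicates 1 and 3 of the 2 groups), a difference that was not tested. Across the 2 groups, replicate 2 against replicate 1 or 3 gave negative r, from -0.514 to -0.408, so replicate 2 stands apart here too. Same-numbered lists were read as pairs, from the data and not from a label, only in the within-pair values and the replicate block. The main limma fit and the permutation tests were unpaired. A few members of these sets are not reported here. The steps were tested on simulated data. Alternatives were 1 covered length, a stricter q, 50% coverage, joined peaks, other consensus lists, windows, filters, centring and pseudocounts, all 3 replicates, a replicate block and leaving out each list.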

Additional observations from a re-analysis of the deposited data

How the results depend on the processing

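Of 133 recomputed values of the main results, 82 were counted as unchanged, 50 as moved and 1 changed sign. Counts were unchanged when they stayed within 1.5 times their value. Differences in peak number and covered length were unchanged when their sign stayed, at any size. Covered length thus counts as unchanged at -62.4 Mb over all 3 replicates against -3.03 Mb. Counts of genes called by limma were 0 in every reading and are among the 82. With 1 covered length 658 regions were gained and 7105 kept, 271 gene ends were gained, and 1795 genes lay below and 1632 above. That reading drops the weakest peaks of every list but the shortest. The shortest is RANKL+I-BET replicate 3 (20.6 Mb) for regions and gene ends, and untreated replicate 1 (16.1 Mb) for gene lengths. With a -log10 q of at least 5, 865 regions were lost, 384 gained and 175 kept, 519 gene ends were lost and 210 gained, and 1392 genes lay below and 473 above. With 50% of a region covered 850 regions were lost and 207 gained. Over all 3 replicates 342 regions were lost, 0 gained and 4878 kept, 0 gene ends were gained and 0 genes lay above. With a gene end drawn at 5 kb, 10 gene ends were gained. Centring on the median gave 1547 genes below and 2562 above, the 5 kb window 2227 below, the 100 kb window 5395 below, and a filter of 2000 bp 2013 below and 389 above. With 1 list left out, 772 to 2149 regions were lost and 228 to 842 gained, 176 to 872 gene ends were lost and 19 to 115 gained, and 4906 to 6850 genes lay below and 1600 to 2939 above. The difference in peak number then ran from -3742.5 to 287.5, the last without RANKL+I-BET replicate 3. In those fits the lone list is assumed to vary like the lists of the other groups.

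Of 56 recomputed counts of gene list members below, 28 moved by over 1.5 times. With 1 list left out, members below numbered 3 to 15 for the NFATc1 and AP-1 list, 12 to 17 for NF-kB, 8 to 19 for osteoclast function, 3 to 9 for inflammatory genes, 7 to 13 for interferon and 4 to 10 for macrophage identity. Of all genes tested in those readings, 40.6% to 57.5% lay below.

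No gene was called by limma in any alternative, and the smallest adjusted p ranged from 0.252 to 1. With the replicate block, 377 genes had an unadjusted p under 0.05 and 0 were called, so the block changed no call. Read as pairs, the replicate block gave 1747 lost and 1668 gained regions in pair 1 and 3685 and 572 in pair 3, where 1 list of each group has to hold or lack a region. Of 215 recomputed log2 differences of named genes 208 kept their sign. Those that turned were Ccr1 with a 100 kb window (-0.12) and, over all 3 replicates with and without the block, Ripor3 (-1.39), Klhl6 (-0.34) and Casp6 (-0.94). Apart from the construction of each alternative, the cause was not tested. The lists record where a peak was called and not how much signal it held, so a region just under the caller's threshold counts as not held.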
